A study of Homo sapiens with 8 samples.

Results

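The 55 rows described here are intervals of chromosome 1 whose counts were abundant in HEK 293T cell lysates and scarce in every group of microvesicles. A row is a gene feature of the deposited count table. Each had at least 100 counts over the 4 cell libraries, and its pooled share of counts was at most 0.2 of the cell share both in TRACE microvesicles and in control microvesicles. The 55 members came from 395 rows of chromosome 1 with at least 100 cell counts, leaving 340 other cell-abundant rows for comparison, among 5361 chromosome 1 rows in all. Shares were taken without rows ENSG00000228794 and ENSG00000143514, which held 11.7% to 68.5% of the counts of a microvesicle library and at most 0.098% of a cell library. The members were thus chosen by their measured cell counts and vesicle shares, which are described below without a test.

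HEK 293T is a human embryonic kidney line. TRACE cultures were transfected with GFP joined to YTHDF1 together with GBP1 joined to CD9, and control cultures with GFP alone and the same GBP1-CD9. All cultures grew in medium with 10% exosome-depleted serum, 1% penicillin/streptomycin and RNase A at 30 µg/mL, and microvesicles were collected by ultracentrifugation and 0.8 µm filtration. Each group had 2 libraries, numbered II and III for TRACE and I and II for control, for cells and for microvesicles. The labels do not say that replicates were separate cultures, so their spread may be technical. Transfection was by lipofection, and the labels name no selection of the cells that took up the constructs. Rows at the positions of the HEK 293T markers STMN1 and NES held 12 and 0 cell counts. Among blood, epidermis and liver markers taken as absent from this line, rows at PTPRC held 225 cell counts and at LCK 38. Those at CD53 held 11, at CD48 9, at FLG 7 and at IVL and AGT 0, and the other listed markers had no row. PTPRC and LCK thus stood above STMN1, and the cell line could not be checked from these counts.

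Microvesicles are membrane particles that bud from the cell surface and carry some of the cell's RNA and protein. CD9 is a tetraspanin of such membranes. YTHDF1 is a cytoplasmic reader protein that binds N6-methyladenosine, a methyl mark on messenger RNA that occurs mostly within short motifs such as GGACT. TRACE brings them together through GFP and its binder to draw YTHDF1-bound RNA into vesicles.

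Row labels could not be used as gene names. The row labelled RPL11, a ribosomal protein gene of high abundance in most cells, had 1 cell count, whereas the 3 rows over the GRCh38 position of RPL11 had 4742. Rows are therefore named by the RefSeq gene (GRCh38.p14) with the largest overlap of their span, protein-coding genes first. The named gene need not hold most of a row's exonic bases. Coordinates are those of the deposited rows. By this naming the 55 rows fell on 52 genes. Exonic bases are those of the GENCODE 19 row, set against whole gene spans of GRCh38 with introns included, so a base counted as in a gene may be intronic there. Per the submitters' notes reads were aligned to hg19, which is at odds with counts that follow GRCh38 positions; the build of the alignment could not be checked, and every gene name rests on this. The naming is by position alone, no strand was marked by the library kit, and 10 of the 55 rows (18.2%) had a pseudogene under their exonic bases, against 92 of the other 340 (27.1%). All counts lay on chromosome 1, so reads of a parent gene elsewhere and reads of such a copy cannot be told apart.

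Of the members, 22 genes had a row whose exonic bases all lay in 1 coding gene with no pseudogene. GGACT was present in the canonical transcript (GENCODE 44) of 22 of the 22, against 39 of 43 other cell-abundant genes of that kind (90.7%) and 88.8% of 1994 coding genes of chromosome 1. Its median density was 0.84 per kb in the members, 0.80 in the other abundant genes and 0.95 in all coding genes. Median transcript length was 3740, 3119 and 2868 bases, and median GC content 47.3%, 47.0% and 49.4%. The 25 bases around the match nearest the stop codon are shown for 4 members that carry much of the cell signal, with the searched motif in capitals, as read on the transcript strand. Methylation was not measured, and a match is only a match of letters.
RBBP4: agaactacatGGACTtccaagagtg
TMCO1: ttacatccaaGGACTgtctcatcga
SF3A3: gaaaagacaaGGACTgctctagtgt
EXOSC10: actgcaacgtGGACTcaaacaagca
The RBBP4 match was in the 3' UTR (transcript bases 2590 to 2594), and the others were in coding sequence (496 to 500 in TMCO1, 1552 to 1556 in SF3A3 and 1277 to 1281 in EXOSC10).

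As a group, the members filled a steady part of each cell library and little of any vesicle library. TRACE cells had 14.5% (II) and 15.2% (III) of their counts on them and control cells 14.3% (I) and 12.9% (II), a mean of 14.2% ± 0.97 (SD, n = 4). In microvesicles they held 0.69% and 1.24% in TRACE II and III and 0.57% and 0.49% in control I and II, a mean of 0.75% ± 0.33 (SD, n = 4). The other 340 cell-abundant rows held 64.3% ± 1.7 of cell counts and 43.9% ± 19.5 of microvesicle counts (SD, n = 4), from 25.9% in control microvesicles II to 69.9% in TRACE microvesicles II. A lower share can reflect less of these RNAs in vesicles or more of other RNA, and in cells fewer cells or less RNA per cell; these cannot be told apart.

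**Figure D1:**
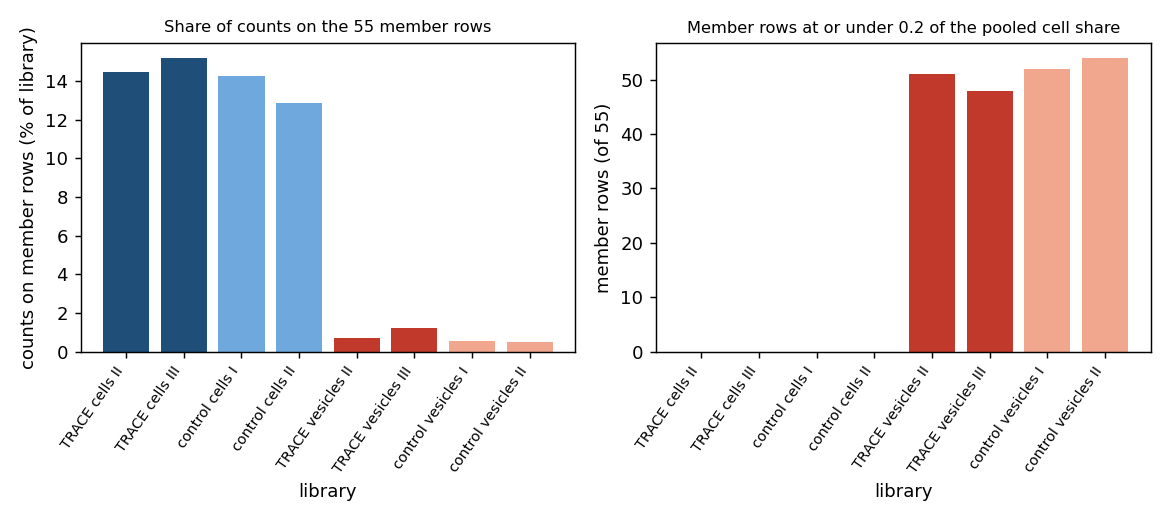
Left, bars give the percent of each library's counts, without the 2 dominant rows, that lay on the 55 members, from 12.9% to 15.2% in cells and from 0.49% to 1.24% in microvesicles (vesicles in the axis labels). Right, bars give how many members were at or under 0.2 of the pooled cell share in each single library, 48 to 54 in microvesicles and 0 in cells.

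The pooled ratio of the microvesicle share to the cell share had a median of 0.052 for TRACE and 0.020 for control microvesicles over the members. Over the other abundant rows these medians were 0.65 and 0.38. A row at 100 cell counts would have 20.5 counts in TRACE and 77.6 in control microvesicles at an equal share, so the threshold stood at 4.1 and 15.5 counts. With exact 95% intervals, which cover counting error only, the upper bound was at or under 0.2 in both groups for 41 of 55 members. Just inside the threshold were DNAJC11, a mitochondrial cristae factor, at 0.187 in control microvesicles, ANP32E, a histone H2A.Z chaperone, at 0.190 in control microvesicles, and SELENOF, a selenoprotein of the endoplasmic reticulum, at 0.198 in TRACE microvesicles. Just outside it were INTS7 (0.201, control), TIPRL (0.205, TRACE) and DNAJC8 (0.206, TRACE).

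**Figure D2:**
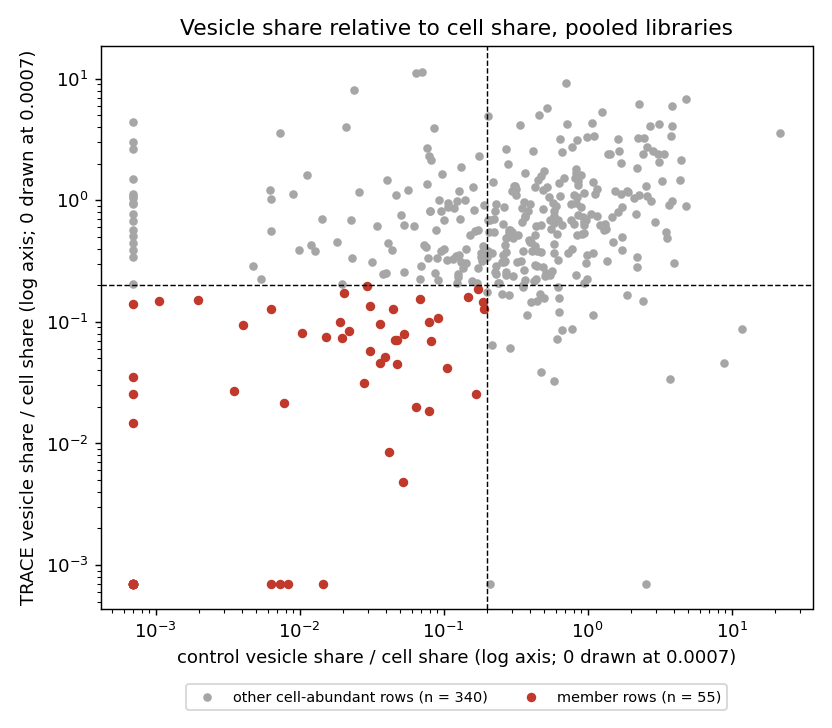
Ratio of the pooled vesicle share to the pooled cell share of each cell-abundant row, control on the x axis and TRACE on the y axis, both log axes, with a ratio of 0 drawn at 0.0007 and dashed lines at 0.2. The members (red) occupy the lower left by their rule, and of the other rows (grey) 2 had no TRACE and 17 no control vesicle count.

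Among chromatin and transcription factors, RBBP4 was the gene with most member rows. RBBP4 is a histone-binding subunit shared by several chromatin complexes, among them PRC2 and NuRD. Its 3 rows lay side by side, labelled CCDC28B (chr1:32665987-32670988), IQCC (chr1:32671236-32674288) and DCDC2B (chr1:32674695-32681797), and together held 4414 cell counts. The first stood at 6712 (II) and 5884 (III) CPM in TRACE cells, 6052 (I) and 4398 (II) in control cells, and, in the same order of replicates, 0 and 283 in TRACE and 79.2 and 219 in control microvesicles. CPM is the count per 1000000 counts of the library outside the dominant rows. Every cell library was above every vesicle library. Over the 3 rows the vesicle share was 0.054 of the cell share in TRACE and 0.028 in control. A row at chr1:32680073-32687972, over RBBP4 and SYNC, had ratios of 0.052 and 0.039.

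PARP1, which adds ADP-ribose chains at DNA breaks, gave its name to a row with 9.5% of its exonic bases in the gene and the pseudogene LOC101060016 also under it. Its CPM were 3426 and 4110 in TRACE cells, 3631 and 2288 in control cells, 65.5 and 370 in TRACE microvesicles and 267 and 72.8 in control microvesicles. ARID4B, a subunit of the SIN3A corepressor complex, was met by a single row of 226 bases, at 629, 1143, 1220 and 1190 CPM in the same order of cells. It stood at 327 and 43.5 CPM in TRACE microvesicles and had 0 counts in both control microvesicle libraries. RFX5, an activator of MHC class II genes, had 36.6% of its row's exonic bases in the gene. Its ratios were 0.046 in TRACE and 0.036 in control microvesicles, and those of ANP32E 0.128 and 0.190. The ANP32E row had 85.1% of its exonic bases in the gene, with the pseudogene RNU2-17P also under it. Of 15 abundant rows at positions of the chromatin and transcription list, 5 were members, those of RBBP4, PARP1 and ARID4B. Members made up 55 of all 395 abundant rows. The list's median ratios were 0.63 in TRACE and 0.23 in control microvesicles.

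Metabolic genes made up the list with the largest share of members, 4 of 7 abundant rows (57.1%), where 55 of all 395 abundant rows were members. CTPS1 makes CTP from UTP, GLUL makes glutamine from glutamate and ammonia, and SCP2 carries sterols and lipids. Of the exonic bases of these rows, 33.5% lay in GLUL, 58.0% in CTPS1, 58.2% in SELENOF (with HS2ST1 also under that row) and 100% in SCP2, so the names behind this share are uncertain. CTPS1 stood at 4521 and 6788 CPM in TRACE cells and 5025 and 4190 in control cells, against 131 and 87.1 in TRACE and 7.2 and 66.2 in control microvesicles. Its share was 46.7-fold lower in TRACE and 128.6-fold lower in control microvesicles than in cells. For GLUL the values were 2331, 1995, 1385 and 1509 CPM in cells, 0 and 348 in TRACE microvesicles and 14.4 and 6.6 in control microvesicles. Both TRACE cell libraries were above both control cell libraries for GLUL, and TRACE library III gave 16 of its vesicle counts, control microvesicles 3. SELENOF had the highest pooled TRACE ratio of the members, with 491 and 326 CPM against 1841 and 2575 in TRACE cells, while control microvesicles had 64.8 and 53.0 against 1926 and 1846. SCP2 had 653 to 853 CPM in the 4 cell libraries and a count of 0 in all 4 vesicle libraries.

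RNA processing was represented by SF3A3, a subunit of the U2 snRNP of the spliceosome, by EXOSC10, a catalytic subunit of the nuclear RNA exosome, and by UTP11, a ribosome biogenesis factor. SF3A3 stood at 4265 and 5355 CPM in TRACE cells and 4301 and 3938 in control cells. In vesicles it had 131 and 1023 CPM in TRACE libraries II and III and 439 and 166 in control libraries I and II, so that TRACE III held most of the TRACE counts. EXOSC10 had 2 member rows, and the larger stood at 3263, 4673, 4292 and 3877 CPM in cells, 65.5 and 239 in TRACE microvesicles and 454 and 404 in control microvesicles. It was among the 14 members lower in TRACE than in control microvesicles by pooled ratio, 0.042 against 0.106; 32 members (58.2%) were higher in TRACE, and the other 9 were at 0 in both. Of the other abundant rows 220 of 340 (64.7%) were higher in TRACE. UTP11 (16.7% of the exonic bases in the gene) had 0 and 675 CPM in TRACE microvesicles and 28.8 and 6.6 in control microvesicles, below all 4 cell libraries at 3570 to 5167. SARS1, a seryl-tRNA synthetase (10.3% of the exonic bases in the gene), had ratios of 0.128 in TRACE and 0.045 in control microvesicles. TDRKH, a Tudor-domain factor of the piRNA pathway, had 0.0084 and 0.042, with the pseudogene LOC100270670 also under its row.

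Membrane and secretory genes included TMCO1, a calcium channel of the endoplasmic reticulum, OSBPL9, an oxysterol-binding protein, ST3GAL3, a sialyltransferase of the Golgi, and SLC16A1, the lactate transporter MCT1. TMCO1 stood at 4218 and 5457 CPM in TRACE cells and 4695 and 4564 in control cells, with 98.2 and 718 in TRACE and 79.2 and 99.3 in control microvesicles. SLC16A1 was met by a row of 104 bases labelled snoU13, at 1095 and 1347 CPM in TRACE cells and 697 and 669 in control cells, and had 0 counts in every vesicle library. Against a floor of 3 counts over the pooled group, its share was at least 21.2-fold lower in TRACE and at least 80.4-fold lower in control microvesicles. OSBPL9 had ratios of 0.071 and 0.046. Of 9 abundant rows on the membrane and secretory list, 2 were members, where 55 of all 395 abundant rows were.

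The largest member row by counts, 7020 in cells, covers CNIH3, an AMPA receptor auxiliary protein, and also the pseudogene AKR1B1P1. It stood at 17526, 18043, 18147 and 19820 CPM in cells, 327 and 2133 in TRACE microvesicles and 281 and 291 in control microvesicles. A row at LOC728989 had none of its exonic bases in that gene's span and lay over SSBL4P, RNVU1-8 and TRE-TTC14-1; its ratios were 0.108 and 0.091. LINC02771 (10.9% of the exonic bases in the gene) had ratios of 0.020 and 0.065. TMEM222, a membrane protein, shared its row with the pseudogene ACTG1P20, with ratios of 0.10 and 0.079. Rows named for ACTA1, skeletal muscle actin, with NUP133 also under it (0.081 and 0.010), OVGP1, an oviduct glycoprotein, with WDR77 and UBE2FP3 (0.0048 and 0.052), and SASS6, a centriole protein, with LRRC39 and TRMT13 (0.096 and 0.036), had under 10% of their exonic bases in the named gene, so the gene behind their counts is uncertain. ZNF678, a zinc finger gene whose row also covers FAM133FP, had 3 counts in TRACE and 0 in control microvesicles. MIR4422HG, a microRNA host gene whose row also covers GYG1P3, had 0 and 9.

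**Figure D3:**
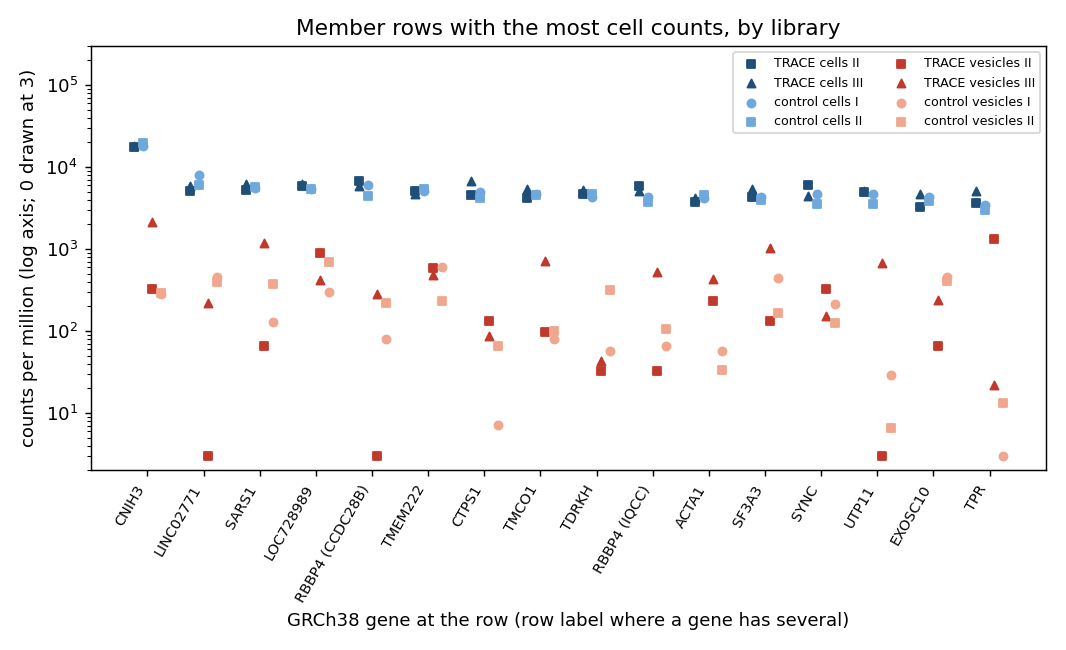
CPM on a log axis in each of the 8 libraries for the members with most cell counts, with a count of 0 drawn at 3; colours give the group and symbols the replicate. The cell libraries (blue) lie close together above all vesicle libraries (red), and the TRACE vesicle libraries lie far apart for CNIH3, SF3A3 and TPR.

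Of the members, 9, singled out after their values were seen, had 0 counts in all 4 vesicle libraries; any abundant row with no vesicle count is a member by the rule. They were SLC16A1, SCP2, AMPD2 (AMP deaminase), TTF2 (a transcription termination factor), UBAP2L (a stress granule protein), LOC124904414, SHC1 (a receptor tyrosine kinase adaptor), ODR4 and TPRG1L. UBAP2L was met by a row of 68 bases labelled SNORD59, at 676, 682, 605 and 552 CPM in cells. Their cell counts ran from 103 for TPRG1L to 311 for SLC16A1, and the bounds from at least 7.0-fold lower for TPRG1L to at least 21.2-fold lower for SLC16A1 in TRACE microvesicles. All 9 were below the members' median of 535 cell counts. A count of 0 here holds for the row and not for the whole gene. Of the rows' exonic bases, 50.7% lay in AMPD2, 62.5% in LOC124904414 and 68.1% in TPRG1L. APH1A and C1orf54 also lay under the LOC124904414 row, and WRAP73 under the TPRG1L row. A longer row over UBAP2L had 1825 cell counts and ratios of 0.82 in TRACE and 0.080 in control microvesicles. A row over SLC16A1, labelled CTTNBP2NL, had 162 cell counts and ratios of 0.66 and 2.92. ODR4 also lay under the row named for TPR, which had 41 counts in TRACE microvesicles. These rows were picked after their values were seen.

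The remaining members were smaller rows. HSPA6, a heat shock protein, had ratios of 0.058 and 0.031 and PIP5K1A, a phosphoinositide kinase, 0.186 and 0.172. SLC39A1, a zinc importer, had 2 counts in TRACE and 0 in control microvesicles against 275 in cells. The rows of C1orf198, MEGF6, NPL, IVNS1ABP, LPGAT1, IQGAP3, RO60, TMEM39B, WLS, CACHD1 and PFKFB2, together with the second EXOSC10 row, had ratios between 0 and 0.159 in TRACE and between 0 and 0.168 in control microvesicles. The NPL row had 33.7% of its exonic bases in the gene, with DHX9 also under it. The MEGF6 row had 20.6%, with WRAP73, TP73 and TPRG1L also under it.

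Single vesicle libraries are listed as a description only, because the rule had capped the pooled shares of these same libraries. In TRACE microvesicles II, 30 of the 55 members had a count of 0. At most 0.2 of the pooled cell share was found for 51 of 55 members in TRACE microvesicles II, 48 in TRACE III, 52 in control I and 54 in control II. The other 340 abundant rows reached this in 108, 51, 130 and 137 cases. Compared with the cells of the same construct and numeral, ratios reached 0.520 for ARID4B in TRACE II, 0.260 for ANP32E in control I and 0.231 for DNAJC11 in control II, and 51, 51, 52 and 54 of 55 members were at or under 0.2 in TRACE II, TRACE III, control I and control II. In all 55 members, each of the 4 cell libraries was above each of the 4 vesicle libraries. The CV over the 4 cell libraries had a median of 19.4%, from 5.41% to 56.7%. Without TRACE microvesicles III, 88 rows met the rule instead of 55.

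Other rows over the same genes had a wide range of vesicle shares. Another 31 rows lay over 22 of the member genes with at least 20 cell counts, and 2 of them (6.45%) were at or under 0.2 in both vesicle groups. Those with at least 100 cell counts could not be, since they would then be members. Their median ratios were 0.66 in TRACE and 0.78 in control microvesicles. At 20 to 99 cell counts, 2 of 18 such rows met both limits (11.1%), against 43 of all 536 rows in that range (8.02%). Their medians were 0.92 in TRACE and 1.97 in control microvesicles, against 1.85 and 2.23 over all rows in that range. A further RBBP4 row, labelled TXLNA, with 79 cell counts, had ratios of 0.99 and 3.44. The SCP2 row labelled TUT4 had 0.38 and 0.41, and the EXOSC10 row labelled MASP2 had 0.31 and 0.032. These rows were picked as examples after their values were seen.

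Member rows were shorter and more densely counted in cells than other abundant rows. Their median exonic length was 2775 bases against 4912, and 15 of 55 (27.3%) were under 1000 bases against 25 of 340 (7.35%). Rows of a single exonic block made up 11 of 55 members and 23 of the other 340 (6.76%). Median cell counts per kb were 323 against 69.2. Across 4 groups of equal size, ordered by exonic length from shortest to longest, 26.3%, 17.2%, 9.18% and 3.03% were members. Ordered by cell counts per kb, from lowest to highest, the shares were 1.01%, 8.08%, 14.3% and 32.3%. Cell counts also enter the rule, as its minimum of 100 and as the base of both ratios. Counts per kb are thus not independent of membership, and a short row needs more of them to reach the minimum. Median cell counts were 535 in members and 299.5 in the other abundant rows. Ordered by cell counts, from lowest to highest, 5.05%, 15.2%, 10.2% and 25.3% were members. The part of exonic length and counts per kb in membership was not tested.

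**Figure D4:**
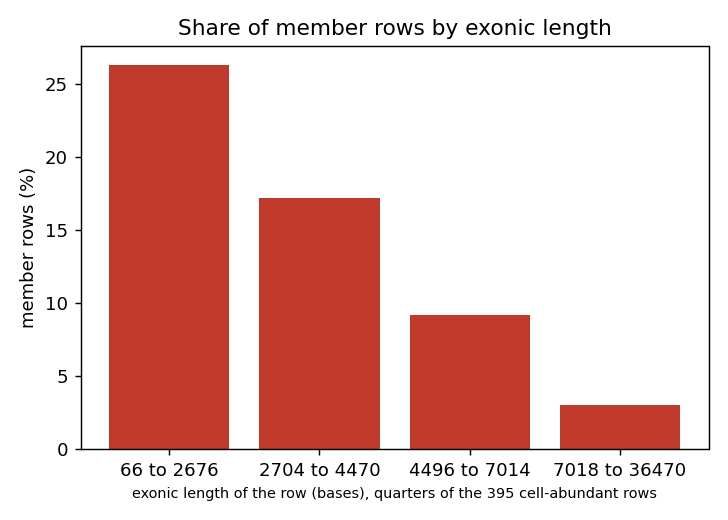
Bars give the percent of rows that are members in 4 groups of equal size of the cell-abundant rows, ordered by exonic length in bases on the x axis. The share is 26.3% in the shortest group and 3.03% in the longest.

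Cell levels of the members could be compared between TRACE and control cultures, because the rule pooled the 4 cell libraries. No member passed the test. In edgeR's quasi-likelihood test over 1409 rows, 0 of 55 members and 0% of all rows passed an adjusted p of 0.05, and 0 members and 9 rows had an unadjusted p under 0.05. A fit of only the 4 cell libraries, over 626 rows, also called 0 members, with 13 of 55 at an unadjusted p under 0.05. The number of all 626 rows under that p was not recorded, so the 13 cannot be set against a background. DESeq2 called 0 members. The members' log2 fold changes (TRACE against control cells) had a median of 0.07, beside -0.02 over all rows tested, and 30 were above and 25 below 0. They ran from -1.11 ± 1.00 (SE) for C1orf198 to 0.82 ± 0.84 for ODR4, both with an adjusted p of 1 in edgeR. With RBBP4 the values were 0.13, 0.30 and 0.45 in its 3 rows, and with CTPS1 0.15, each with an SE of 0.89 or more. The split moved to 38 above and 17 below with library size alone as the scaling. TRACE and control libraries did not overlap for 26 of 55 members (47.3%), 18 higher and 8 lower in TRACE. Of all rows tested this held for 38.3% (20.9% higher and 17.4% lower), and of the other abundant rows for 48.8%. In simulated libraries, with levels averaged over the 4 groups, the test called 2% of rows changed 4-fold and 46% of rows changed 16-fold. Most differences of 4-fold would thus be missed in such rows. They were drawn from all 1409 rows with the spread of the 8-library fit, so the power for the members was not measured.

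**Figure D5:**
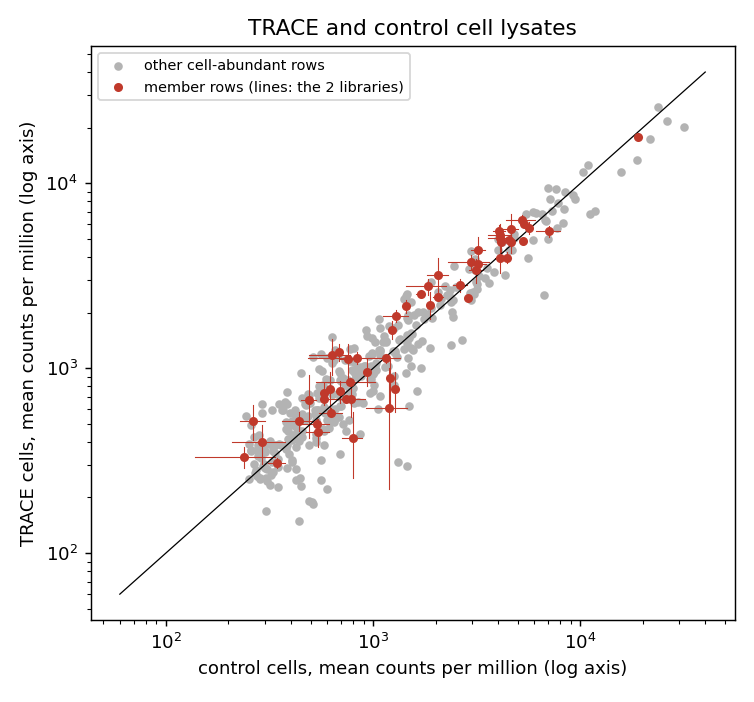
Mean CPM of the 2 TRACE cell libraries (y) against that of the 2 control cell libraries (x) for each cell-abundant row, on log axes, with the line of equal level; members are red with lines that join their 2 libraries. The members lie on both sides of the line, 30 above and 25 below 0 in the fitted log2 fold change.

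All 55 members entered the fit, through their cell counts. For microvesicles against cells of the same construct, the rule had used the same contrast, so the calls are only listed. In edgeR, 55 of 55 members were called lower in control microvesicles (18.2% of all rows were, and 11.3% were called higher) and 41 of 55 in TRACE microvesicles (4.54% of all rows were, and 0.426% were called higher). Single values were -7.93 ± 1.26 (log2, SE, adjusted p = 0.0029) for CTPS1 in control and -6.41 ± 1.21 (adjusted p = 0.020) in TRACE microvesicles, by edgeR. The 14 members not called in TRACE included SELENOF at -3.10 ± 0.85 and ARID4B at -2.83 ± 1.14 (log2, SE). In TRACE microvesicles the calls fell to 0 of all 1409 rows with library size alone as the scaling. They fell to 0 of 551 rows in a fit of only the 4 TRACE libraries. Members called in control were fewer without either control cell library. Those called in TRACE were lost without any 1 of the cell libraries and fewer without either TRACE microvesicle library. These fits leave 1 library in a group, so their counts are not given.

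Between TRACE and control microvesicles, where the rule had capped both groups, 3 of 55 members were called higher in TRACE (4.83% of all rows were) and 0 lower (1.21% of all rows). They were ARID4B at 7.04 ± 1.57, ST3GAL3 at 6.25 ± 1.6 and TPR, a nuclear pore basket protein, at 6.75 ± 1.79 (log2, SE), with adjusted p of 0.034, 0.045 and 0.0498 in edgeR. In each, 1 TRACE library held most of the counts. ARID4B had 10 and 2 counts in TRACE libraries II and III and 0 in both control libraries. ST3GAL3 had 0 and 37 against 1 and 0, and its row also covers the pseudogene SHMT1P1. TPR, with 30.7% of the row's exonic bases in the gene and more of them in ODR4, had 40 and 1 against 0 and 2. Groups did not overlap for 13 of 55 members, 8 higher and 5 lower in TRACE, against 40.0% of all rows tested (11.9% higher and 28.2% lower). The count of 3, a share of members near that of all rows, became 0 in a fit of only the 4 microvesicle libraries. In that fit 19 members passed the filter on low counts, and 0 of 1304 rows were called. The calls were also lost without any 1 of the cell or control microvesicle libraries, and changed in number without either TRACE microvesicle library. These fits leave 1 library in a group.

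Other fixed lists held few or no members, where 55 of all 395 abundant rows were members. The lists are short and partial, and the members DNAJC11, SARS1, ACTA1 and SASS6 were on none of them. A count of 0 on a list thus does not mean that its class was absent from the members. Of the abundant rows, 0 of 2 on the ribosomal protein list, 0 of 7 on the translation and RNA binding list, 0 of 3 on the proteasome list, 0 of 10 on the mitochondrial list, 0 of 11 on the cell cycle list, 0 of 6 on the cytoskeleton list and 0 of 1 on the long non-coding RNA list were members. SF3A3 was the member among 3 abundant rows on the splicing list. Median ratios on the mitochondrial list were 0.39 in TRACE and 0.17 in control microvesicles, and on the cell cycle list 0.32 and 0.42. Against these stand the medians of 0.54 and 0.28 over all 395 abundant rows.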

How the data were processed

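The deposited values are whole-number read counts per gene feature, made by the authors with featureCounts 1.6.4 against GENCODE 19, with the strand setting at 2, per the file headers. Reads were aligned with STAR to hg19, per the submitters' processing notes. SMART-Seq2 and Nextera libraries carry no strand mark, per the labels' protocols. Each library has columns R1 and R2, of unstated meaning, which were added; 16 columns were used. Library totals ran from 34602 to 479140 counts, all on chromosome 1. The members and gene lists were chosen with earlier results of these data known. A further 11 named rows, and the values of 1 member, are not reported here.

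Pooled shares and CPM leave out the 2 dominant rows. Rows were tested with edgeR 4.0.16 (quasi-likelihood, TMM, filterByExpr, 4 groups in 1 model, 4 residual degrees of freedom, Benjamini-Hochberg over 1409 rows at 0.05). Ratio intervals are exact at 95%. Named are the 30 members with most cell counts, members called between cell groups and the 3 rows on each side of the threshold; other names are said to be picked later or complete the account of members. The steps were tested on simulated data. Alternatives were other scalings, filters, thresholds, DESeq2 1.42.0, single columns, left-out libraries and the replicate block. Same-numbered cell and vesicle libraries come from the same sample per the series text; their deviations correlated at -0.028 (TRACE) and 0.024 (control).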

Additional observations from a re-analysis of the deposited data

How the results depend on the processing

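The number of rows meeting the rule was 86 with a threshold of 0.3, 90 with the 2 dominant rows kept in the totals, and between 53 and 88 with 1 library left out; the 88 came without TRACE microvesicles III. With 1 library left out, members called lower in control microvesicles against cells numbered 24 to 55, members called lower in TRACE microvesicles against cells 0 to 49, and members called between microvesicles 0 to 7. Library size alone as the scaling gave 0 members and 0 of 1409 rows in TRACE microvesicles against cells. Between microvesicles it gave 1 member and 44 of 1409 rows. A fit of only the 4 libraries compared gave 0 of all rows in both. Between microvesicles, DESeq2 called 7 members and 169 of 1409 rows. No filter on low counts gave 5 members and 227 of 4022 rows, and the dominant rows kept gave 1 member and 69 of 1113 rows. The causes were not tested. In the fits that leave libraries out, the number of samples and the rows tested changed together. With 1 library left out, calls over all rows also changed in each comparison that involves microvesicles. Those fits leave 1 library in a group, and their ranges of member calls do not set the members apart from other rows. The comparison of TRACE and control cells called 0 members under each alternative that kept 2 libraries a group. With only the 4 cell libraries 13 members had an unadjusted p under 0.05, and the number over all rows was not recorded. With the replicate block, 55 members and 391 of 1409 rows were called in control microvesicles against cells, and 47 members and 88 rows in TRACE. No paired analysis was possible between TRACE and control because they share only the numeral II. The scalings moved the median of all rows between 0.78 and 2.11 (log2) for control and between 0.36 and 1.25 for TRACE microvesicles against cells. Depth limits the ratios, since 13 members had a count of 0 in TRACE and 13 in control microvesicles.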
